A study of Mus musculus with 10 samples.

Results

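The genes described here take up arginine, spend it on creatine, clear its methylated form, or turn it into nitric oxide in mouse liver. They were 9 genes chosen by symbol, namely *Slc7a2*, *Slc7a1*, *Gatm*, *Gamt*, *Ddah1*, *Ddah2*, *Prmt1*, *Agxt2* and *Nos3*, and 8 of them were measured among the 15126 genes of the deposited table. *Prmt1* was not analysed here. The livers described are the 5 of the AAV8-Control group, from *db/db* mice, which lack a working leptin receptor and are obese and diabetic. AAV8 is an adeno-associated virus that infects mainly hepatocytes after injection into a vein, and AAV8-Control carried enhanced green fluorescent protein (eGFP), so the livers are not those of uninjected mice. The mice were 10 weeks old, and polyadenylated RNA was sequenced 5 weeks after the vector was given. The study's methods name male mice and tail-vein delivery, and the promoter of the vector is not given in the sources used here.

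Arginine enters cells through cationic amino acid transporters of the SLC7 family, and in liver low-affinity uptake by the CAT2 protein is the usual route. Creatine is made by an amidine transfer from arginine to glycine, which takes place largely in kidney, followed by a methylation, which takes place largely in liver. Proteins whose arginine residues were methylated release asymmetric dimethylarginine when they are degraded, and this free amino acid inhibits nitric oxide synthases until it is hydrolysed or transaminated. Endothelial cells are the main source of nitric oxide from NOS3 in liver.

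Levels are given as CPM, the reads on a gene per 1000000 reads counted on all genes. The 5 libraries held 19499795 to 35498596 counted reads, so a single read stood for 0.0282 to 0.0513 CPM. The labels name the tissue as liver but also mention cultured hepatocytes and adenovirus. Markers of other liver cells were present in every library, as 10 endothelial genes summed to 167 to 364 CPM, 8 Kupffer cell genes to 134 to 269.6 CPM and 8 stellate cell genes to 260 to 349.7 CPM. Genes of hepatocytes dominated, with 7 of them summing to 92430, 115900, 117500, 127000 and 100900 CPM in replicates 1 to 5, lowest in replicate 1 and highest in replicate 4, while 8 lymphocyte genes summed to 1.11 to 3.996 CPM. In RNA from whole liver, fewer cells of a given type cannot be told apart from less RNA per cell.

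The 8 genes fell into a high and a low set, with *Slc7a2* and *Slc7a1*, *Gamt* and *Gatm*, and *Ddah1* and *Ddah2* each on opposite sides. *Slc7a2*, *Gamt*, *Ddah1* and *Agxt2* averaged 179.8 CPM or more, and *Gatm*, *Nos3*, *Ddah2* and *Slc7a1* averaged 5.55 CPM or less. Levels of different genes were compared per kilobase of exon. On this scale the order was *Gamt* at 154, *Ddah1* at 61.6, *Agxt2* at 56.8, *Slc7a2* at 44.6, *Gatm* at 1.85, *Ddah2* at 0.987, *Nos3* at 0.629 and *Slc7a1* at 0.106 CPM per kilobase. The ranges over 5 livers overlapped for *Ddah1* and *Agxt2*, and for *Ddah2* and *Nos3*, so the order within those pairs is not settled. Within a liver, *Ddah1* was at 1.01 to 1.14 times *Agxt2* and *Ddah2* at 1.16 to 1.81 times *Nos3*. *Agxt2*, *Nos3* and *Slc7a2* share exon bases with other genes, however, and without the shared bases each of these ratios was above 1 in 3 of 5 livers, where for *Nos3* opposite-strand genes are included. *Agxt2*, at 54.8 to 58.9 CPM per kilobase, lay just above the highest *Slc7a2* liver, at 54.75 CPM per kilobase, and without bases shared with genes of either strand these ranges overlapped too. The other neighbours in the order had ranges that did not overlap, with or without the shared bases. Among 11036 genes that averaged 1 CPM or more, the 4 high genes lay at the percentiles 92.3 to 97.5 of level per kilobase, and the 4 low genes at the percentiles 0.390 to 35.2. Those of the low genes rest on this minimum, which *Slc7a1* only just passed, and among all 15119 genes with an exon length they were 20.8 to 52.7.

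**Figure D1:**
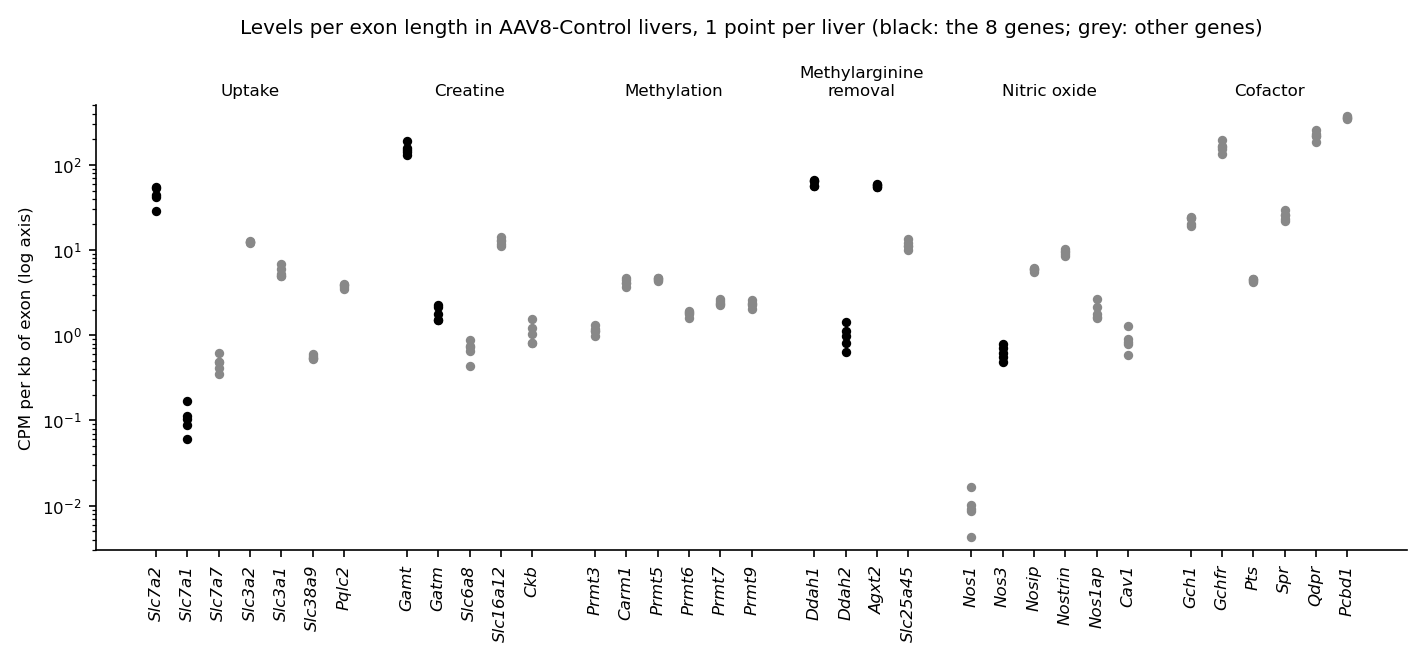
Level in CPM per kilobase of exon (vertical log axis) of the 8 measured genes in black and of other genes of the same pathways in grey, grouped by role, with 1 point for each of the 5 AAV8-Control livers. *Gamt*, *Ddah1*, *Agxt2* and *Slc7a2* lie between 28.5 and 189.6 CPM per kilobase, and *Gatm*, *Ddah2*, *Nos3* and *Slc7a1* between 0.0601 and 2.29.

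*Slc7a2* encodes CAT2, the low-affinity arginine, lysine and ornithine transporter that hepatocytes use. It maps to chromosome 8, positions 40862396 to 40922308 of GRCm38, on the forward strand. Its level in the 5 livers, in the order of their replicate numbers, was 404, 378, 260.5, 500.2 and 492 CPM. Replicates 4 and 5 were close together at the top, and replicate 3, the deepest library, stood below the others. The mean was 407 ± 97.8 CPM (SD, n = 5 livers), and the highest liver had 1.92 times the level of the lowest. The coefficient of variation (the SD as a percentage of the mean) was 24.0%, where counting alone would give 1.03%, since each library held at least 7860 reads on the gene. An opposite-strand noncoding gene, *Gm26584*, shares 635 of its 9135 exon bases. The study counted only reads it could assign to a single gene, and whether the counting used strand is not given in the sources used here.

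*Slc7a1* encodes CAT1, the high-affinity arginine transporter of most tissues outside the liver. It maps to chromosome 5, positions 148327410 to 148399904, on the reverse strand. Its level was 1.95, 1.30, 1.18, 0.693 and 1.01 CPM in the 5 livers, from 19 to 42 reads per library. Replicate 1 was the highest liver and replicate 4 the lowest. The exact 95% Poisson intervals of these livers, which cover counting error only, were 1.38 to 2.67 CPM and 0.417 to 1.08 CPM and did not overlap. These livers were picked as the extremes of 5, which makes such a gap more likely than for livers chosen beforehand. The mean was 1.23 ± 0.463 CPM (SD, n = 5 livers), with a coefficient of variation of 37.7% where counting alone would give 18.9%.

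Per kilobase of exon, *Slc7a2* exceeded *Slc7a1* in every liver. The ratio within a liver was 262, 367, 278, 912 and 612. Replicate 4, which had the highest *Slc7a2* and the lowest *Slc7a1*, gave the highest ratio. The mean ratio was 486 ± 276 (SD, n = 5 livers). *Slc7a1* entered it with few reads, so the upper values are imprecise.

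Of 10 measured genes listed for the transport of cationic amino acids, 7 averaged 1 CPM or more, and *Slc7a2* had the highest level per kilobase. *Slc3a2* encodes the 4F2 heavy chain, the partner that brings light chain transporters of arginine and of large neutral amino acids to the cell surface, and it was at 45.3, 43.3, 44.0, 44.2 and 43.8 CPM. These values differed by less than counting alone would give, with a coefficient of variation of 1.70% beside 3.10%. *Slc7a7*, the light chain y+LAT1 that carries arginine out of epithelial cells, was at 1.56 ± 0.331 CPM (SD, n = 5 livers). *Slc3a1*, the heavy chain of the renal cystine and arginine carrier, was at 12.8 ± 1.91 CPM, but *Slc7a9*, the light chain of that carrier, had 1 read in all 5 libraries together. The lysosomal genes *Slc38a9*, a sensor of arginine, and *Pqlc2*, an exporter of cationic amino acids, were at 9.33 ± 0.556 CPM and 13.4 ± 0.776 CPM.

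**Figure D2:**
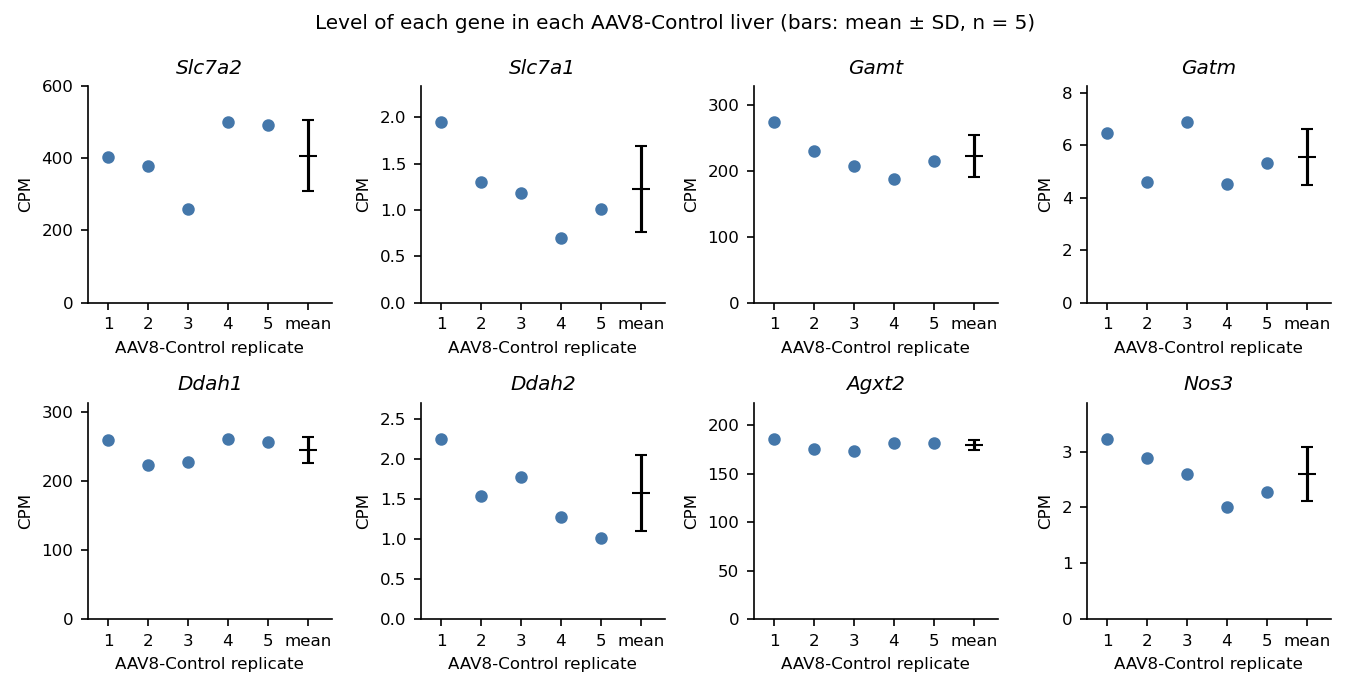
Level of each of the 8 measured genes in CPM (vertical axes, each from 0) in every AAV8-Control liver by replicate number, with the mean ± SD of 5 livers as a black bar. *Agxt2* is nearly level at 173 to 186 CPM, *Slc7a2* ranges from 260.5 to 500.2 CPM, and replicate 1 is the highest liver for *Slc7a1*, *Gamt*, *Ddah2*, *Nos3* and, before TMM scaling only, *Agxt2*, and the lowest for the sum of hepatocyte markers, whose part in these values was not tested.

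*Gatm* and *Gamt* encode the enzymes of the first and second step of creatine synthesis. *Gatm*, the glycine amidinotransferase that consumes arginine, maps to chromosome 2, positions 122594467 to 122611303, on the reverse strand. Its level was 6.46, 4.57, 6.87, 4.52 and 5.32 CPM in the 5 livers. Replicates 1 and 3 were high, and replicates 2 and 4 were low and nearly equal. The mean was 5.55 ± 1.08 CPM (SD, n = 5 livers), from 95 to 244 reads per library, with a coefficient of variation of 19.4% where counting alone would give 8.71%.

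*Gamt*, the guanidinoacetate methyltransferase that finishes creatine, maps to chromosome 10, positions 80258151 to 80261012, on the reverse strand. Its level was 274, 229, 207, 188 and 214 CPM in the 5 livers. Replicate 1 was the highest liver, and the others ranged down to replicate 4, the lowest. The mean was 222.5 ± 32.2 CPM (SD, n = 5 livers), a coefficient of variation of 14.5% where counting alone would give 1.39%.

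*Gamt* exceeded *Gatm* per kilobase of exon in every liver. The ratio within a liver was 88.05, 104, 62.6, 86.5 and 83.8, with a mean of 85.0 ± 14.8 (SD, n = 5 livers). Replicates 1, 4 and 5 gave nearly the same ratio, replicate 2 a higher one and replicate 3 a lower one. Of 6 measured genes listed for creatine synthesis, transport and kinases, 5 averaged 1 CPM or more. *Slc16a12*, which lets creatine out of cells, was at 52.9 ± 5.04 CPM, and *Slc6a8*, which carries creatine in, was at 3.58 ± 0.824 CPM (SD, n = 5 livers). The brain-type creatine kinase *Ckb* was at 3.15 ± 0.896 CPM, and the mitochondrial creatine kinase *Ckmt1* was at 0.166 ± 0.0923 CPM, from 2 to 6 reads per library.

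Arginine methyltransferases add the methyl groups that later appear as free dimethylarginine. Of 11 measured genes listed for these enzymes and their partners, 10 averaged 1 CPM or more. *Carm1*, an enzyme of asymmetric dimethylation, was at 20.5 ± 1.93 CPM or 4.23 CPM per kilobase of exon. *Prmt5*, the main enzyme of symmetric dimethylation, was at 18.1 ± 0.580 CPM or 4.57 CPM per kilobase, and *Prmt9*, a further enzyme of symmetric dimethylation, was at 13.3 ± 1.18 CPM or 2.33 CPM per kilobase (SD, n = 5 livers each). *Prmt2*, another asymmetric methyltransferase, was the lowest of the list at 0.756 ± 0.0775 CPM. Per kilobase of exon, the methyltransferases *Prmt3*, *Prmt6* and *Prmt7* were at 1.14, 1.80 and 2.43 CPM and *Prmt2* at 0.224 CPM, so their levels lay on both sides of *Gatm*.

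*Ddah1* encodes the dimethylarginine dimethylaminohydrolase that breaks asymmetric dimethylarginine into citrulline and dimethylamine. It maps to chromosome 3, positions 145758675 to 145894277, on the forward strand. Its level was 259, 223, 227, 261 and 257 CPM in the 5 livers. Before scaling, replicates 1, 4 and 5 were nearly equal, and replicates 2 and 3 lay somewhat lower. After TMM scaling the values were 245, 226, 229, 270 and 257 CPM, so replicate 1 was no longer level with replicate 4. The mean was 245 ± 18.8 CPM (SD, n = 5 livers), a coefficient of variation of 7.67% where counting alone would give 1.32%.

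*Ddah2* encodes the related protein DDAH2, best known from vascular and immune tissues. It maps to chromosome 17, positions 35059035 to 35062095, on the forward strand. Its level was 2.26, 1.54, 1.77, 1.28 and 1.01 CPM in the 5 livers, from 21 to 63 reads per library. Replicate 1 was the highest liver and replicate 5 the lowest, and their exact 95% Poisson intervals, 1.64 to 3.03 CPM and 0.628 to 1.55 CPM, did not overlap. As for *Slc7a1*, these livers were picked as the extremes of 5. The mean was 1.57 ± 0.477 CPM (SD, n = 5 livers), a coefficient of variation of 30.3% where counting alone would give 16.5%.

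*Agxt2* encodes the mitochondrial aminotransferase that removes asymmetric dimethylarginine by another route and also acts on symmetric dimethylarginine. It maps to chromosome 15, positions 10358532 to 10410153, on the forward strand. Its level was 186, 175.5, 173, 182 and 182 CPM in the 5 livers. No liver stood apart, replicate 1 was the highest in CPM and replicate 4 after TMM scaling, and the mean was 179.8 ± 5.24 CPM (SD, n = 5 livers). The coefficient of variation was 2.91% where counting alone would give 1.54%, and 1.93% of the 11036 genes that averaged 1 CPM or more had one as low. The median over those genes was 10.6%. Without the minimum level, the share was 1.41% and the median 14.2%. A same-strand protein-coding gene, *Gm21973*, shares 155 of the 3165 exon bases of *Agxt2*, and since only reads assigned to a single gene were counted, reads on the shared bases alone would be left out.

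The main genes of removal were near each other in every liver. Per kilobase of exon, *Ddah1* was 1.10, 1.01, 1.04, 1.14 and 1.12 times *Agxt2* within a liver, a mean ratio of 1.08 ± 0.0566 (SD, n = 5 livers). Without the bases that *Agxt2* shares with *Gm21973*, the ratio was below 1 in replicates 2 and 3, at 0.959 and 0.988, and averaged 1.03 ± 0.0538, so the values do not separate the levels of these genes. The ratio of *Ddah1* to *Ddah2* was 45.9, 57.8, 51.1, 82.0 and 101, with a mean of 67.6 ± 23.3 (SD, n = 5 livers). Replicates 4 and 5, which had the lowest *Ddah2*, gave the highest ratios. *Slc25a45*, a mitochondrial carrier of methylated basic amino acids that was listed with these genes, was at 31.8 ± 3.39 CPM or 11.5 CPM per kilobase.

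**Figure D3:**
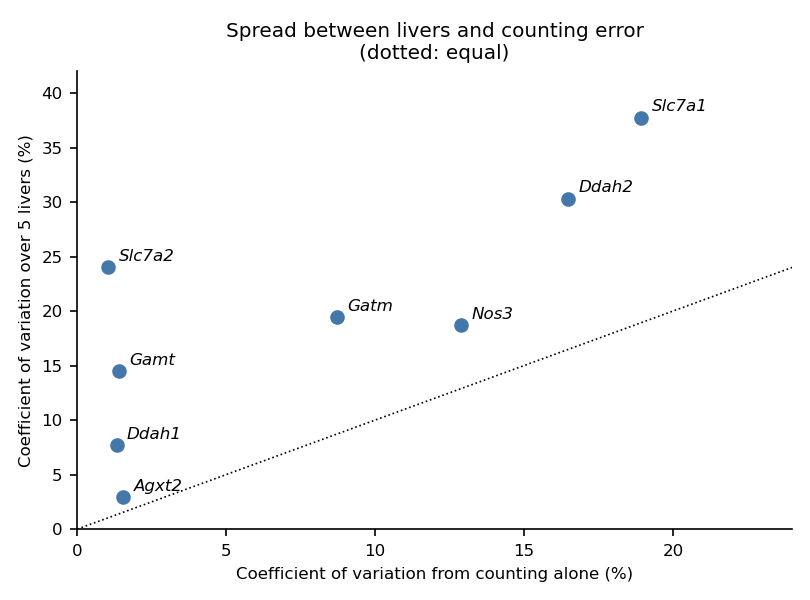
Coefficient of variation over 5 AAV8-Control livers (vertical axis, %) against the one that counting reads alone would give (horizontal axis, %) for the 8 measured genes, with a dotted line where both are equal. All 8 lie above the line, and *Slc7a2*, at 24.0% against 1.03%, has the highest ratio of the 2 values.

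*Nos3* encodes endothelial nitric oxide synthase, which makes nitric oxide and citrulline from arginine. It maps to chromosome 5, positions 24364810 to 24384474, on the forward strand. Its level was 3.23, 2.89, 2.59, 2.005 and 2.27 CPM in the 5 livers, from 47 to 92 reads per library. Replicate 1 was the highest liver and replicate 4 the lowest, and the exact 95% Poisson intervals of these livers, 2.48 to 4.13 CPM and 1.51 to 2.61 CPM, overlapped. The mean was 2.60 ± 0.486 CPM (SD, n = 5 livers), a coefficient of variation of 18.7% where counting alone would give 12.9%. The opposite-strand genes *Gm15587* and *Atg9b* share 1040 and 294 of its 4132 exon bases.

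Markers of endothelial cells varied over the same livers. The summed level of 10 such genes was 364, 246, 294, 167 and 236 CPM, a coefficient of variation of 28.0%. Replicate 1 was the highest and replicate 4 the lowest for this sum as for *Nos3*, and the same held for *Slc7a1*, *Gamt* and *Asl*, so the match was not particular to *Nos3*. *Nos3* amounted to 8.87, 11.7, 8.82, 12.0 and 9.64 CPM per 1000 CPM of the sum, with a mean of 10.2 ± 1.54 (SD, n = 5 livers). Among the markers, *Pecam1*, an adhesion protein of endothelium, was at 18.4 ± 3.63 CPM, *Cdh5*, the cadherin of endothelial junctions, at 25.6 ± 7.94 CPM, and *Stab2*, a scavenger receptor of sinusoidal endothelium, at 37.6 ± 12.4 CPM (SD, n = 5 livers each). The part of endothelial RNA in the *Nos3* values was not tested.

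**Figure D4:**
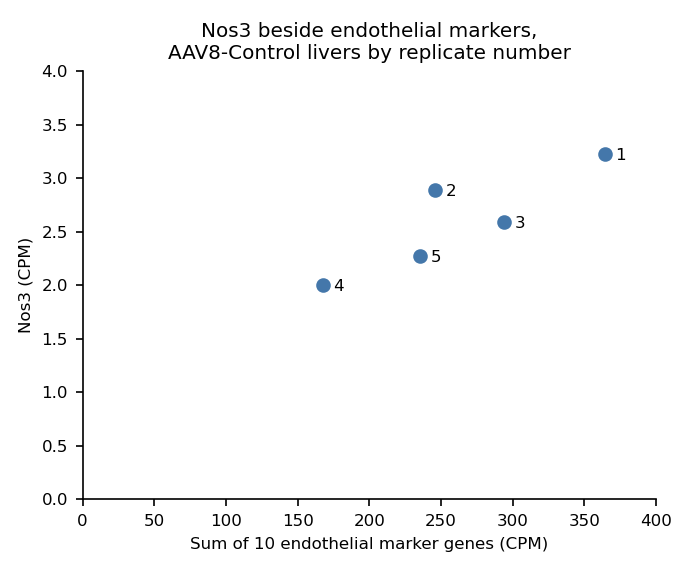
*Nos3* in CPM (vertical axis) against the summed CPM of 10 endothelial marker genes (horizontal axis), 1 point for each AAV8-Control liver with its replicate number. Replicate 1, at 364 and 3.23 CPM, is highest on both axes and replicate 4, at 167 and 2.005 CPM, is lowest on both.

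The other nitric oxide synthases were near the limit of detection. *Nos1*, the neuronal enzyme, had 1 to 5 reads per library, and *Nos2*, the inducible enzyme of inflamed tissue, had 0 to 7. The 0 of *Nos2* was in replicate 2, where 3 reads, the one-sided 95% limit that a count of 0 allows, stand for 0.144 CPM. The highest *Nos2* liver was replicate 4 at 0.255 CPM. Of 12 measured genes listed for the synthases and their regulators, 10 averaged 1 CPM or more. *Nosip* and *Nostrin*, whose proteins bind NOS3 and move it away from the membrane, were at 16.5 ± 0.660 CPM and 17.8 ± 1.41 CPM, and *Cav1*, which encodes the caveolar protein that holds NOS3 inactive, was at 3.02 ± 0.890 CPM (SD, n = 5 livers each). *Nos1ap*, an adaptor of the neuronal enzyme, was at 14.2 ± 3.31 CPM although *Nos1* itself averaged 0.109 ± 0.0481 CPM.

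Tetrahydrobiopterin is the cofactor that nitric oxide synthases need, and liver also uses it to hydroxylate phenylalanine. All 8 genes listed for its supply averaged 1 CPM or more. *Gch1*, the enzyme that starts its synthesis, was at 138.5 ± 15.1 CPM, and *Gchfr*, the feedback regulator of that enzyme, was at 104.8 ± 14.1 CPM (SD, n = 5 livers each). The recycling enzymes *Pcbd1* and *Qdpr* were at 294.5 ± 9.02 CPM and 396.6 ± 45.9 CPM, and per kilobase of exon *Pcbd1* was the highest of the list at 360 CPM. On the same per-kilobase scale, the lowest of the 8, *Pts* at 4.45 CPM per kilobase, still lay above *Nos3*.

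Genes of the response to nitric oxide spanned a wide range. Of 8 listed, 4 averaged 1 CPM or more, among them *Gucy1a3* and *Gucy1b3*, the subunits of the soluble guanylate cyclase that senses nitric oxide, at 5.27 ± 0.886 CPM and 4.80 ± 0.666 CPM (SD, n = 5 livers each). *Vasp*, an actin regulator that the kinases of this pathway phosphorylate, was at 14.0 ± 1.96 CPM, and *Adh5*, which breaks down S-nitrosoglutathione, was at 381.5 ± 11.2 CPM. The kinase genes *Prkg1* and *Prkg2* were at 0.510 ± 0.170 CPM and 0.158 ± 0.0748 CPM.

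The urea cycle genes that rebuild arginine from citrulline were above all 8 genes in CPM. *Ass1*, argininosuccinate synthase, was at 1354, 1012, 853.4, 1041 and 1176 CPM, and *Asl*, argininosuccinate lyase, was at 750.6, 685, 613, 559 and 641 CPM. Replicate 1 was the highest liver for both, and the lowest was replicate 3 for *Ass1* and replicate 4 for *Asl*. Per kilobase of exon, *Ass1* at 450 CPM was above all 8 genes, and *Asl* at 134.5 CPM was below *Gamt* alone, with ranges of 116 to 155 and 130 to 189.6 CPM per kilobase that overlapped. *Otc*, which makes citrulline from ornithine, was at 458 ± 79.1 CPM, and *Oat*, which sends ornithine towards glutamate and proline, was at 1833 ± 314 CPM (SD, n = 5 livers each). Replicate 3, the lowest liver for *Slc7a2*, was also the lowest for *Ass1*, *Otc* and *Oat*, and replicate 4, the highest for *Slc7a2*, was also the highest for *Otc* and *Oat*. *Arg1*, arginase 1, did not share these extremes. It was at 1355, 1265, 1371, 1278 and 1321 CPM, highest in replicate 3 and lowest in replicate 2. The summed level of 8 markers of hepatocytes around the central vein was 12260, 11360, 10370, 13650 and 11060 CPM. This sum was also lowest in replicate 3 and highest in replicate 4, but *Oat* is among its genes, so it is not independent. The summed level of 9 markers of hepatocytes around the portal vein, *Ass1* and *Arg1* among them, was 96960, 120700, 124100, 129300 and 104600 CPM. That sum was highest in replicate 4 too, but lowest in replicate 1. Whether the extremes of replicates 3 and 4 were particular to arginine and ornithine genes was not tested. The part of hepatocyte zonation in these values was not tested either.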

How the data were processed

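Liver RNA of 5 *db/db* mice was analysed, the AAV8-Control group as named in the sample titles. The comparison with the other livers of the series is not reported here. The authors aligned single reads of 50 bases with STAR 2.0.4b to GRCm38.p2 (Ensembl release 76), counted them on genes with featureCounts 1.4.5, and deposited CPM values, with all gene-counted reads of a library as the denominator. Of 15236 lines, 110 repeated a gene and were dropped. Dividing by the CPM of 1 read gave whole reads (within 0.05) for 100% of values. No count test was run, because no groups were compared. No sequencing batch is given in the sources used here. Libraries differed by a chi-square of at least 17.9 per degree of freedom, so none was a duplicate.

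Means and SDs were computed on CPM over livers. The coefficient of variation from counting alone took Poisson variance in the recovered reads, and PCR copies can make true counting error larger. Positions, overlaps and exon lengths (all exons of all transcripts merged) came from GENCODE release M21 (GRCm38), matched by Ensembl identifier for 15119 genes. The alternatives were TMM scaling (edgeR 4.0.16 in R 4.3.3), DESeq2 1.42.0 size factors, each liver left out, no minimum mean, and exon lengths without shared bases. The members and the gene lists were chosen with earlier results of these data known. Genes other than the 8 were named from the lists after their values were seen.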

Additional observations from a re-analysis of the deposited data

How the results depend on the processing

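TMM scaling and DESeq2 size factors shifted the mean levels of the 8 genes by at most 0.853%, for *Slc7a1*. The factors lay on both sides of 1, at 0.9679 to 1.055 for TMM, so a mean over 5 livers could move little whatever they were. The spread over livers did change. With TMM scaling the coefficient of variation fell from 14.48% to 11.27% for *Gamt* and from 18.7% to 16.23% for *Nos3*. It rose for *Slc7a2*, from 24.02% to 24.96%, and for *Agxt2*, from 2.913% to 2.946%. Leaving out 1 liver shifted the mean levels by at most 14.7%, also for *Slc7a1*. With 5 livers such a shift is always under 1 SD, so it is no check of stability. Scaling factors act on all genes of a library alike and cannot reorder them within a liver. Leaving out the exon bases shared with genes of either strand, an alternative chosen after seeing the data, moved the mean ratio of *Ddah2* to *Nos3* from 1.56 to 1.05 and that of *Ddah1* to *Agxt2* from 1.08 to 1.03. Dropping the minimum mean of 1 CPM, likewise chosen after seeing the data, moved the percentile per kilobase from 0.390 to 20.8 for *Slc7a1*, from 13.1 to 36.3 for *Nos3*, from 21.04 to 42.3 for *Ddah2* and from 35.2 to 52.7 for *Gatm*, and those of the 4 high genes by less. No pseudocount was used. No paired analysis was possible because no groups were compared and no value comes from a test. Depth limits *Slc7a1*, *Ddah2* and *Nos3*, with 19 to 92 reads per library, more than the high genes. Exon lengths merge all annotated transcripts, so a gene with long, rarely used exons has a lower level per kilobase than its main transcript would give.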
